A study of Mus musculus with 9 samples.

Results

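The genes of the tumour necrosis factor (TNF) superfamily were followed across 3 groups of stimulated mouse CD4+ T cell libraries. They were taken from the deposited expression table as every symbol that begins with Tnfsf or Tnfrsf and a digit, together with Tnf, Lta, Ltb, Ltbr, Cd40lg, Cd40, Cd27, Cd70, Fas and Fasl, and without Tnfrsf18. The choice gave 40 of 23849 genes, of which 17 encode ligands and 23 receptors. Of the 40 genes, 26 had a mean of at least 1 FPKM (fragments per kilobase of transcript and per M mapped fragments, M being 10 to the power of 6) over the 9 libraries, 11 ligands and 15 receptors, and these 26 are described gene by gene. All 26 also stood above 1 FPKM in each single library, with a lowest value of 1.18, so none of them entered through 1 group alone.

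All cells were sorted as CD4+CD62LhighCD44low, the surface phenotype of naive T cells, and exposed to anti-CD3 and anti-CD28 antibodies for 24 h before directional libraries were made from poly-A RNA. The 3 control libraries have the genotype wt, 3 carry the transgene written Fosl2 Tg, and 3 have the genotype Fosl2fl/fl CD4-cre+, in which Cre recombinase under Cd4 regulatory elements acts on floxed Fosl2 in T cells. Fosl2 encodes Fra-2, a subunit of the AP-1 transcription factor. The labels give no promoter for the transgene and no age or strain. They do not say whether the libraries of 1 group are from different animals; p-values therefore describe the variation among these libraries, part or all of which may be technical.

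Fosl2 itself stood at 7.77, 7.44 and 6.15 FPKM in the controls, 30.9, 19.2 and 24.5 in Fosl2 Tg, and 19.2, 17.8 and 17.1 in the Fosl2fl/fl CD4-cre+ libraries. Its level was above control in the group labelled as a knockout, by 1.23 ± 0.15 (SE) in log2(FPKM + 1) (limma, adjusted p = 0.00404). An FPKM over the whole gene does not tell deleted from retained exons, and the labels do not name the deleted part, so the value neither checks nor replaces the label. These 3 libraries are therefore called the libraries labelled Fosl2 KO throughout. The number of fragments per library, estimated from the steps between low FPKM values, ranged from 33.9 to 61 M, which puts about 102 (Tnfsf4) to 16600 (Ltb) fragments behind a value of a described member. Library 1 of Fosl2 Tg stood apart, at -36.0 on the first principal component against -15.7 and -16.7 for the other two Fosl2 Tg libraries. The T cell genes Cd3d, Cd3e, Cd3g, Cd4, Cd5 and Lck were high in all libraries. Their summed level was 1300 to 1331 FPKM in control, 1442 to 1540 in Fosl2 Tg and 1174 to 1246 in labelled Fosl2 KO. Cd4 itself did not follow the order of the sum, with means of 178 FPKM in control, 166 in Fosl2 Tg and 194 in labelled Fosl2 KO.

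TNF superfamily ligands are made as membrane proteins with a shared trimeric fold, and many are released from the cell by proteases. They bind receptors with cysteine-rich extracellular repeats. Receptors with a death domain can recruit caspase-activating adaptors, the others bind TRAF adaptors that lead to NF-kB and MAP kinase signalling, and decoy receptors bind ligand without passing on a death signal. In CD4 T cells the family is known for costimulation after antigen contact, for help to B cells and dendritic cells, and for activation-induced cell death. In bulk RNA such as this, fewer cells that express a gene and less of its RNA per cell cannot be told apart.

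5 promoter stretches are printed because they belong to genes on which the results turn, or because they hold the letters of a site for AP-1, the factor of which Fosl2 is part. Each holds the 250 bases before the RefSeq transcription start (GRCm38.p6), in lower case and 5′ to 3′ on the gene's own strand, with capitals marking a match to AP-1 (TGANTCA) or to NF-kB (a degenerate motif of 10 letters), both searched on either strand. Ltb (chr17:35194257-35194506, + strand), Tnf (chr17:35202008-35202257, - strand) and Lta (chr17:35205352-35205601, - strand) are neighbours. Tnfsf14 (chr17:57194182-57194431, - strand) and Fas (chr19:34290409-34290658, + strand) are the 2 described members with an AP-1 match.
Ltb: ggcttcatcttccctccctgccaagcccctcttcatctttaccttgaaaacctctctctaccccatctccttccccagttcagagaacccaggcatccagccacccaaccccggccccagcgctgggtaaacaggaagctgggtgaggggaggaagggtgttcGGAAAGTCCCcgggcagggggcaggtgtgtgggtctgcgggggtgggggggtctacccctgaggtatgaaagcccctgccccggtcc
Tnf: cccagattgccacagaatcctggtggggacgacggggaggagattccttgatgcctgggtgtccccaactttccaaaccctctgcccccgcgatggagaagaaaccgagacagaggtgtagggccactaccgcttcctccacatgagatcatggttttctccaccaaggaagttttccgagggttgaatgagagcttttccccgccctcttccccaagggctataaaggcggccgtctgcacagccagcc
Lta: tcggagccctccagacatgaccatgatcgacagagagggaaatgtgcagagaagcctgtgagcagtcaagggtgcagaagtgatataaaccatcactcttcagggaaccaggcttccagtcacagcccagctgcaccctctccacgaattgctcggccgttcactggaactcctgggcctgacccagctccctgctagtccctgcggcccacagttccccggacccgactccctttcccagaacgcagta
Tnfsf14: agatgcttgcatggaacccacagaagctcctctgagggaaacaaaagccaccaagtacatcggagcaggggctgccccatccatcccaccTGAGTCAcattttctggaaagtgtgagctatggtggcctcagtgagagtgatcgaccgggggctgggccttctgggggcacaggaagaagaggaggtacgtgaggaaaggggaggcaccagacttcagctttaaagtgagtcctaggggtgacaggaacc
Fas: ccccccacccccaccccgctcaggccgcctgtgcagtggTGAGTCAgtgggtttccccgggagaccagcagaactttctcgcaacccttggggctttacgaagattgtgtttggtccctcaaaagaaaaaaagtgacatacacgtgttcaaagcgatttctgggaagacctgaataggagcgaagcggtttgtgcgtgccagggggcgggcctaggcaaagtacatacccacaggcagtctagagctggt
A promoter was at hand for 29 of the 40 members and 19 of the 26 described. The AP-1 letters were found in 2 of these 19 (10.5%) and in 3.56% of 7046 promoters of tested genes, with first bases at -211 in Fas and -160 in Tnfsf14 relative to the start. The NF-kB motif was found in 1 of the 19 (5.26%), Ltb at -87, and in 4.47% of the 7046. A match describes letters in this window and is no evidence of binding. Of the 2 genes with AP-1 letters, Tnfsf14 changed in Fosl2 Tg and Fas did not pass the test in any comparison.

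Against control, 16 of the 26 members passed the test in Fosl2 Tg (limma on log2(FPKM + 1), adjusted p below 0.05 over all 10340 tested genes), where 23.6% of all tested genes did. Of these, 7 rose (8.53% of all genes did) and 9 fell (15.1% of all genes did). In the libraries labelled Fosl2 KO, 8 of 26 passed against control, where 4.46% of all tested genes did. There, 2 rose (2.14% of all genes) and 6 fell (2.32% of all genes). The median difference over the 26 was -0.02 in each comparison, beside -0.03 for Fosl2 Tg and -0.01 for labelled Fosl2 KO over all tested genes. The libraries of Fosl2 Tg and control did not overlap for 17 members, 8 higher and 9 lower (45.2% of all genes, 18.1% higher and 27.1% lower), and those of labelled Fosl2 KO and control for 15, 6 higher and 9 lower (32.8% of all genes, 13.8% higher and 19.0% lower). The majority among the called members of Fosl2 Tg depended on scaling: it was 8 higher and 7 lower with median-of-ratios scaling, 8 and 8 with quantile normalization, and 8 and 6 with small RNA genes left out and FPKM rescaled, while over all genes the share of calls that were higher went from 36.1% to 46.5%, 45.5% and 57.5%.

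The calls rested unevenly on single libraries. Without control library 2 or control library 3, 10 members passed in Fosl2 Tg, and the count over all genes went from 2440 to 879 and 1142. Without library 2 or 3 of labelled Fosl2 KO, which only share the estimate of spread, 1615 and 1497 genes and 12 members passed in Fosl2 Tg. Leaving out Fosl2 Tg library 1, which stands apart, gave 18 called members, and no member lost its call. In labelled Fosl2 KO against control, 5, 4 and 7 members passed without control library 1, 2 and 3, and 5, 4 and 4 without library 1, 2 and 3 of labelled Fosl2 KO. The count over all genes there was 461, and 272, 176, 191, 178 and 210 without control 1, control 2 and labelled Fosl2 KO 1, 2 and 3, 313 without control 3 and 1233 without Fosl2 Tg library 1, where 10 members passed. In all, 9 of the 16 calls and 4 of the 8 held under every alternative in which the gene was tested, 19 or, for members with a mean under 5 FPKM, 18.

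**Figure D1:**
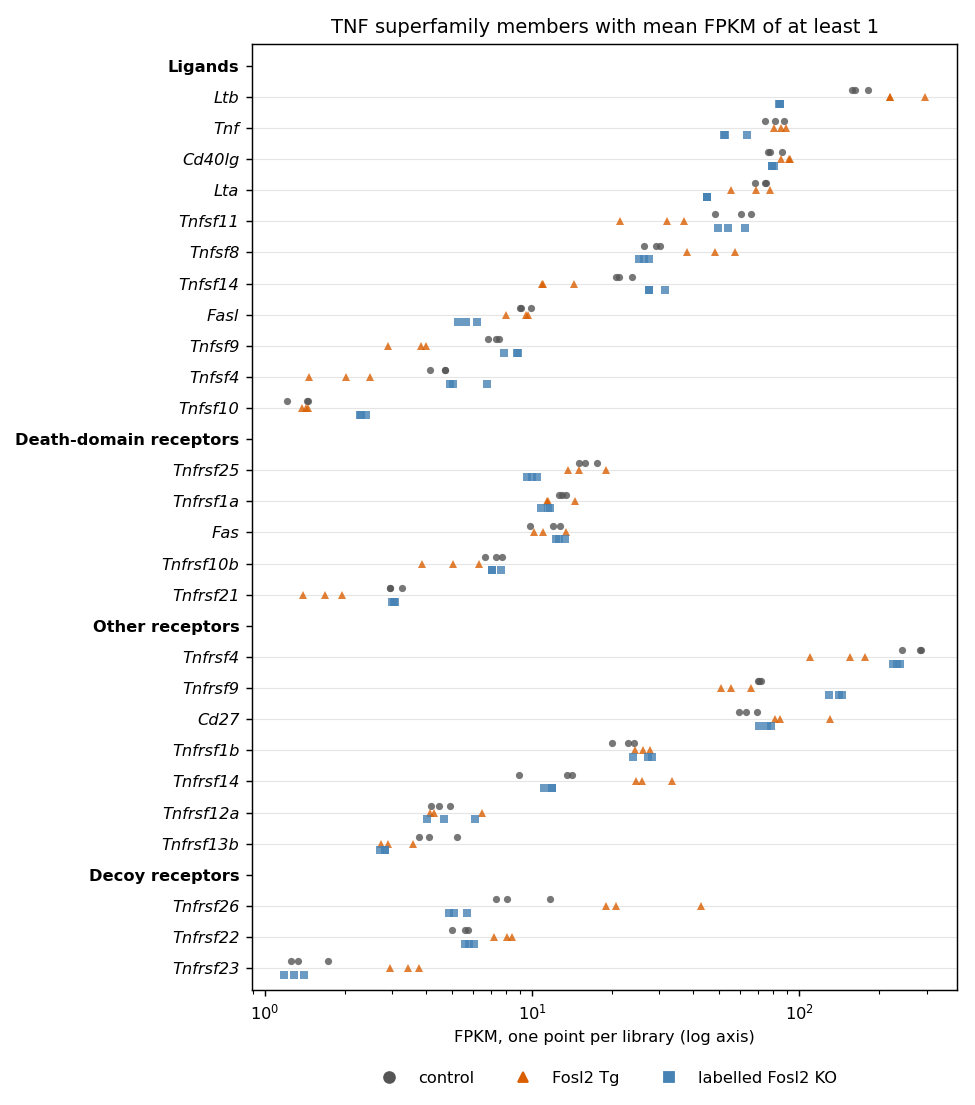
FPKM of the 26 described members in every library (log axis), in grey circles for control, orange triangles for Fosl2 Tg and blue squares for the libraries labelled Fosl2 KO, ordered by role and by control mean. Ltb, Tnfrsf26, Tnfrsf14, Tnfsf14, Tnfsf9 and Tnfrsf9 are among the genes whose Fosl2 Tg libraries separate from control, and Fas and Tnfrsf12a show all 3 groups on top of each other.

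**Figure D2:**
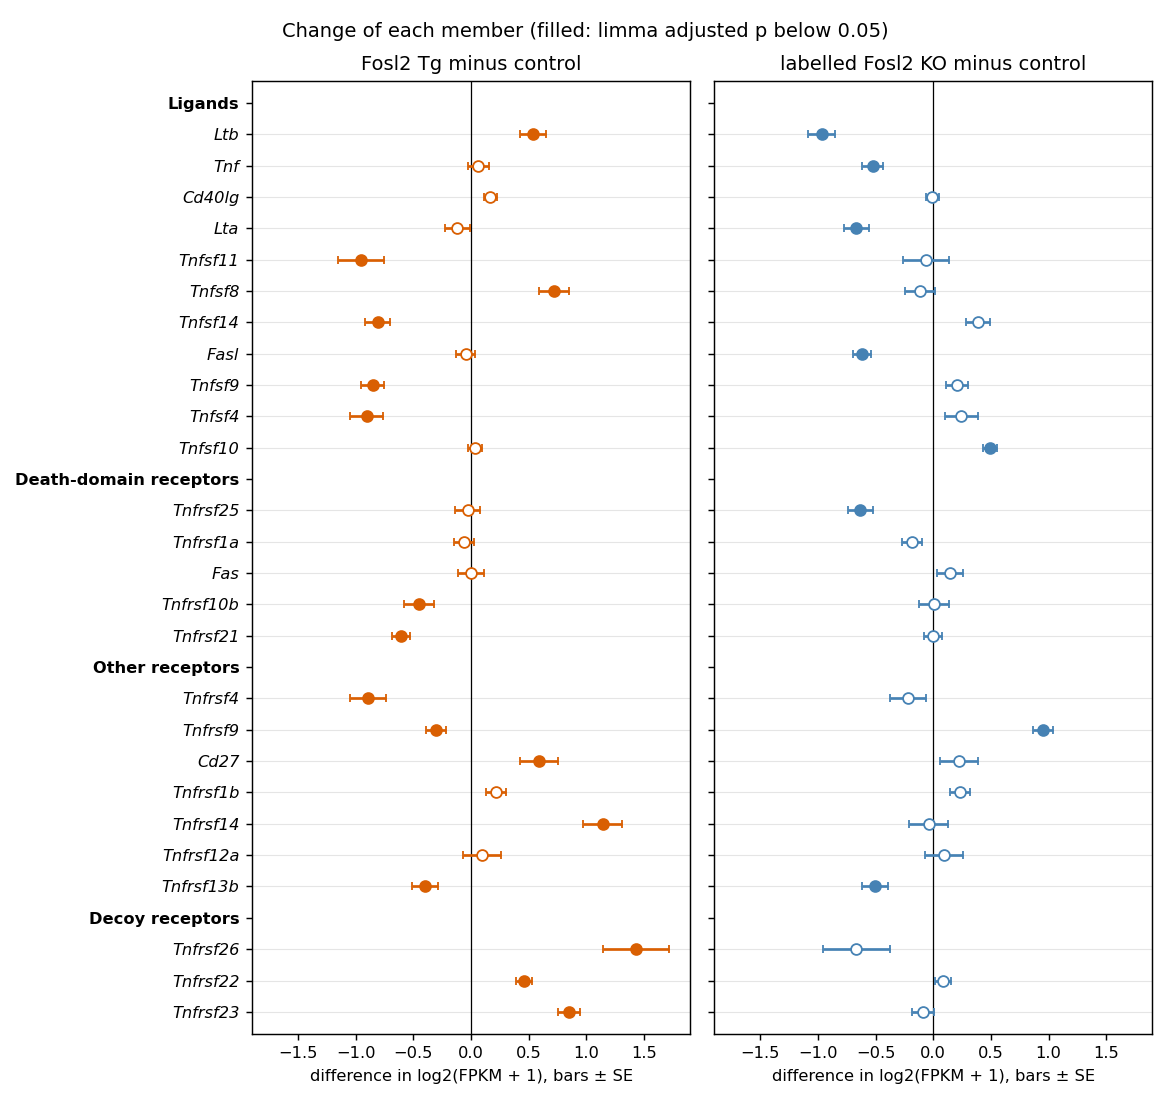
Difference from control in log2(FPKM + 1) for each described member, Fosl2 Tg on the left and labelled Fosl2 KO on the right, with bars of ± SE from limma; filled points have an adjusted p below 0.05. The left panel holds 16 filled points and the right panel 8, and Ltb and Tnfrsf9 are filled on opposite sides of 0 in the 2 panels.

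The lymphotoxin and TNF genes lie side by side on chromosome 17, within 10845 bases, and moved unequally. Ltb (chr17:35194507-35196305) encodes lymphotoxin beta, which joins lymphotoxin alpha in a membrane heterotrimer that acts on the lymphotoxin beta receptor in lymphoid organs. Its level was 181, 158 and 162 FPKM in control, 297, 218 and 219 in Fosl2 Tg, and 85.0, 84.1 and 85.0 in the libraries labelled Fosl2 KO. The 3 groups do not overlap, with Fosl2 Tg above control and labelled Fosl2 KO below it. Ltb rose by 0.54 ± 0.12 in log2(FPKM + 1) in Fosl2 Tg (limma adjusted p = 0.0161) and changed by -0.97 ± 0.12 in labelled Fosl2 KO (adjusted p = 0.00355). The rise in Fosl2 Tg did not pass without control library 2 (adjusted p = 0.0679), without control library 3 (0.0565), or with only the 2 groups compared (0.0669).

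Tnf (chr17:35199391-35201996), the founding cytokine of the family, stood at 81.2, 87.6 and 74.8 FPKM in control, 89.0, 85.2 and 80.2 in Fosl2 Tg, and 63.6, 52.6 and 52.6 in labelled Fosl2 KO. Fosl2 Tg overlaps control and every labelled Fosl2 KO library lies below both. Tnf changed by -0.52 ± 0.09 in labelled Fosl2 KO (limma adjusted p = 0.0153) and did not pass in Fosl2 Tg (adjusted p = 0.599). Lta (chr17:35203165-35205351) encodes lymphotoxin alpha, which is secreted or held at the membrane by lymphotoxin beta. Its level was 74.9, 74.7 and 68.3 FPKM in control, 55.5, 77.7 and 68.9 in Fosl2 Tg, and 45.4, 45.4 and 45.1 in labelled Fosl2 KO. As for Tnf, the labelled Fosl2 KO libraries stand alone at the bottom. Lta changed by -0.67 ± 0.11 there (limma adjusted p = 0.0120) and did not pass in Fosl2 Tg (adjusted p = 0.403).

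The calls of Tnf and Lta in labelled Fosl2 KO were lost when some single libraries were left out. With 1 library left out at a time, the difference stayed between -0.61 and -0.47 for Tnf and between -0.71 and -0.65 for Lta. The adjusted p of Tnf was 0.0550 without control library 1, 0.0725 without control library 2, 0.0744 without labelled Fosl2 KO library 2 and 0.0690 without library 3. That of Lta was 0.0634 without control library 2 and 0.0538, 0.0546 and 0.0549 without library 1, 2 or 3 of labelled Fosl2 KO. Ltb kept its call in labelled Fosl2 KO under all 19 alternatives.

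**Figure D3:**
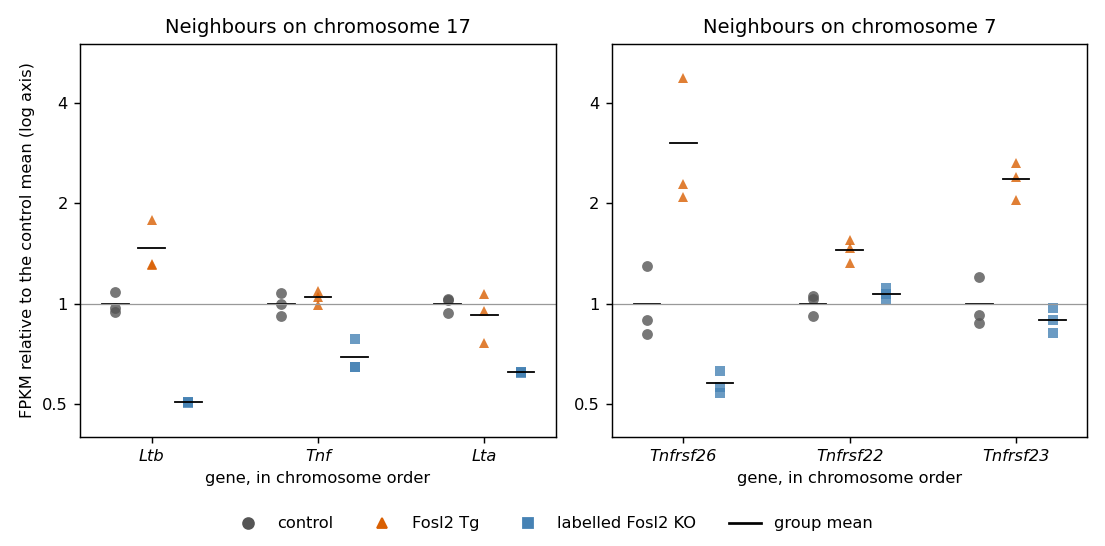
FPKM of each library relative to the control mean (log axis) for 2 sets of neighbouring members in chromosome order, with black bars for group means. On the left, labelled Fosl2 KO lies below control for Ltb, Tnf and Lta while Fosl2 Tg lies above it for Ltb alone; on the right, Fosl2 Tg lies above control for Tnfrsf26, Tnfrsf22 and Tnfrsf23, with its library 1 at the top for Tnfrsf26.

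Among the costimulatory ligands, 3 fell and 1 rose in Fosl2 Tg (15.1% and 8.53% of all tested genes did). Tnfsf4 (chr1:161395438-161418206) encodes OX40 ligand, which sustains T cell survival and memory through OX40. Its level was 4.72, 4.73 and 4.16 FPKM in control, 1.46, 2.48 and 2.01 in Fosl2 Tg, and 5.05, 4.95 and 6.77 in labelled Fosl2 KO. All Fosl2 Tg libraries lie below all others, with library 1 lowest. Tnfsf4 changed by -0.90 ± 0.14 in Fosl2 Tg (limma adjusted p = 0.00497) and did not pass in labelled Fosl2 KO (adjusted p = 0.419), although its 3 libraries lie above control.

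Tnfsf9 (chr17:57105385-57107757) encodes 4-1BB ligand. It stood at 7.32, 6.87 and 7.54 FPKM in control, 2.89, 4.03 and 3.84 in Fosl2 Tg, and 7.87, 8.81 and 8.87 in labelled Fosl2 KO. The groups are apart in the order Fosl2 Tg, control, labelled Fosl2 KO. The difference passed in Fosl2 Tg (-0.85 ± 0.10, limma adjusted p = 0.00141) and not in labelled Fosl2 KO (adjusted p = 0.301). Of the bases of its exons, 14.9% overlap exons of the opposite-strand transcript Gm11110, and whether counting used strand is not given in the sources used here, so reads of both genes cannot be told apart there.

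Tnfsf14 (chr17:57189492-57194186) encodes LIGHT, which costimulates T cells through HVEM and also binds the lymphotoxin beta receptor. It showed the same order, with 21.2, 23.6 and 20.6 FPKM in control, 10.9, 14.3 and 11.0 in Fosl2 Tg, and 31.6, 27.5 and 27.5 in labelled Fosl2 KO. Tnfsf14 changed by -0.81 ± 0.11 in Fosl2 Tg (limma adjusted p = 0.00250). In labelled Fosl2 KO it did not pass (adjusted p = 0.0903), but it did without Fosl2 Tg library 2 (0.0352) and with only the 2 groups compared (0.0332). Tnfsf9, Cd70 and Tnfsf14 lie within 88802 bases of chromosome 17, and all 3 had their lowest mean level in Fosl2 Tg and their highest in labelled Fosl2 KO.

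Tnfsf8 (chr4:63832824-63861284), the ligand of CD30, went the other way. Its level was 30.2, 29.0 and 26.4 FPKM in control, 38.1, 48.5 and 57.8 in Fosl2 Tg, and 25.1, 27.4 and 26.3 in labelled Fosl2 KO. Every Fosl2 Tg library lies above every other library, and labelled Fosl2 KO overlaps control. Tnfsf8 rose by 0.72 ± 0.13 in Fosl2 Tg (limma adjusted p = 0.00873) and did not pass in labelled Fosl2 KO (adjusted p = 0.708). Cd40lg (chrX:57212143-57224042), the ligand through which helper T cells activate B cells and dendritic cells, held a narrow range of 76.2 to 86.2 FPKM in control, 85.9 to 92.6 in Fosl2 Tg and 78.9 to 80.3 in labelled Fosl2 KO. It did not pass against control in either group (adjusted p = 0.0630 and 0.964), but in Fosl2 Tg its call turned on the scaling: it passed with median-of-ratios scaling (0.21, adjusted p = 0.0255), quantile normalization (0.25, 0.0159) and small RNA genes left out (0.27, 0.0164). It also passed without control library 2 (0.0431), without Fosl2 Tg library 1 (0.0422) and with array weights (0.0356 for Fosl2 Tg and 0.00950 for labelled Fosl2 KO).

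Tnfsf11 (chr14:78277446-78308043) encodes RANKL, known for its action on osteoclast precursors and dendritic cells. Its level was 48.6, 60.7 and 66.0 FPKM in control, 21.3, 37.0 and 32.1 in Fosl2 Tg, and 49.5, 63.0 and 54.3 in labelled Fosl2 KO. Fosl2 Tg lies below all other libraries and labelled Fosl2 KO falls inside the control range. Tnfsf11 changed by -0.96 ± 0.20 in Fosl2 Tg (limma adjusted p = 0.0137), a call that was lost without control library 2 (0.0570), without control library 3 (0.0542) and with only the 2 groups compared (0.0512).

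Both described death ligands changed in labelled Fosl2 KO (4.46% of all tested genes did), in opposite directions. Neither passed in Fosl2 Tg (23.6% of all tested genes did). Fasl (chr1:161780692-161788495), which triggers apoptosis through Fas, stood at 9.91, 9.01 and 9.09 FPKM in control, 9.47, 9.67 and 7.96 in Fosl2 Tg, and 5.29, 5.68 and 6.25 in labelled Fosl2 KO. It changed by -0.62 ± 0.08 in labelled Fosl2 KO (limma adjusted p = 0.00506), where all libraries lie below all others, and did not pass in Fosl2 Tg (adjusted p = 0.674). Tnfsf10 (chr3:27317077-27339665) encodes TRAIL, another inducer of apoptosis, and was the lowest of the described ligands. It stood at 1.45, 1.43 and 1.21 FPKM in control, 1.45, 1.38 and 1.42 in Fosl2 Tg, and 2.38, 2.28 and 2.29 in labelled Fosl2 KO. Tnfsf10 thus stood apart in labelled Fosl2 KO on the high side, by 0.49 ± 0.06 (limma adjusted p = 0.00406), and did not pass in Fosl2 Tg (adjusted p = 0.700). Both calls held under every alternative in which the gene was tested, 19 for Fasl and 18 for Tnfsf10. A marker of CD8 T cells moved with the falls of Fasl, Tnf, Lta and Ltb in labelled Fosl2 KO: Cd8b1 stood at 11.4 to 12.4 FPKM in control, 10.5 to 12.5 in Fosl2 Tg and 5.91 to 7.14 in labelled Fosl2 KO (-0.75, limma adjusted p = 0.00199), while Cd8a was at most 0.462 FPKM in a library. The summed level of the NK cell list, most of it Klrd1, was 1.09 to 1.68 FPKM in control, 2.14 to 8.73 in Fosl2 Tg and 0.377 to 0.461 in labelled Fosl2 KO. In Fosl2 Tg, Klrd1 stood at 8.65 FPKM in library 1 and at 2.31 and 2.14 in libraries 2 and 3. Klrd1 did not pass against control in either group. The part of such cells in the values of these ligands was not tested.

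Of the 5 death-domain receptors, 2 fell in Fosl2 Tg (15.1% of all tested genes did) and 1 fell in labelled Fosl2 KO (2.32%). Tnfrsf21 (chr17:43016555-43089188) encodes death receptor 6, known in the mouse to restrain T helper cell responses. Its level was 2.93, 3.27 and 2.95 FPKM in control, 1.39, 1.94 and 1.67 in Fosl2 Tg, and 3.05, 3.00 and 3.08 in labelled Fosl2 KO. Tnfrsf21 changed by -0.61 ± 0.08 in Fosl2 Tg (limma adjusted p = 0.00249), and labelled Fosl2 KO lies inside the control range. Tnfrsf10b (chr14:69767472-69784411), the mouse death receptor for TRAIL, stood at 7.72, 7.36 and 6.69 FPKM in control, 3.88, 5.08 and 6.32 in Fosl2 Tg, and 7.11, 7.08 and 7.66 in labelled Fosl2 KO. The Fosl2 Tg libraries are widely spaced and its library 3 lies just under the lowest control. Tnfrsf10b changed by -0.46 ± 0.13 in Fosl2 Tg (limma adjusted p = 0.0392), but that call was lost without any control library (adjusted p of 0.0796, 0.112 and 0.0752 without control 1, 2 and 3), without Fosl2 Tg library 2 (0.0648), without any labelled Fosl2 KO library (0.0630, 0.0634 and 0.0653 without 1, 2 and 3), and under 3 of the other settings.

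Tnfrsf25 (chr4:152116343-152120111) encodes death receptor 3, the receptor for TL1A and a costimulator of T cells. Its level was 17.5, 15.0 and 15.8 FPKM in control, 19.0, 15.0 and 13.6 in Fosl2 Tg, and 9.61, 10.0 and 10.5 in labelled Fosl2 KO. Labelled Fosl2 KO lies below all other libraries. It changed by -0.63 ± 0.11 there (limma adjusted p = 0.0168). That call was lost without control library 1, 2 or 3 (0.0644, 0.0539 and 0.0538) and without labelled Fosl2 KO library 1, 2 or 3 (0.0782, 0.0734 and 0.0569). Fas (chr19:34290659-34327770) and Tnfrsf1a (chr6:125349723-125362483), the receptor through which soluble TNF acts in most tissues, did not pass against control. Fas stood at 9.80 to 12.7 FPKM in control, 10.2 to 13.4 in Fosl2 Tg and 12.3 to 13.3 in labelled Fosl2 KO (limma adjusted p = 0.999 for Fosl2 Tg and 0.555 for labelled Fosl2 KO against control). Of the alternatives run, only array weights gave Fas a call against control, in labelled Fosl2 KO (0.000609). Tnfrsf1a stood at 12.6 to 13.5, 11.4 to 14.5 and 10.8 to 11.7 FPKM in the same order (limma adjusted p = 0.577 and 0.297), and passed in both comparisons only without Fosl2 Tg library 1 (adjusted p = 0.0407 for Fosl2 Tg and 0.0318 for labelled Fosl2 KO) or with array weights.

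The receptors without a death domain include the 2 receptors of the family with the highest mean FPKM over the 9 libraries, Tnfrsf4 and Tnfrsf9. Tnfrsf4 (chr4:156013695-156016589) encodes OX40, the receptor of Tnfsf4, which appears on activated T cells and is high on regulatory T cells. Its level was 242, 284 and 286 FPKM in control, 110, 177 and 156 in Fosl2 Tg, and 238, 225 and 232 in labelled Fosl2 KO. Fosl2 Tg lies below every other library, with library 1 lowest. Tnfrsf4 changed by -0.90 ± 0.16 in Fosl2 Tg (limma adjusted p = 0.00741) and did not pass in labelled Fosl2 KO (adjusted p = 0.507), although its libraries lie just under the lowest control. The receptor and its ligand Tnfsf4 thus both fell in Fosl2 Tg.

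Tnfrsf9 (chr4:150920155-150946102) encodes 4-1BB, induced on T cells after activation. It stood at 72.1, 70.0 and 70.7 FPKM in control, 66.1, 55.7 and 51.2 in Fosl2 Tg, and 145, 130 and 141 in labelled Fosl2 KO. Labelled Fosl2 KO stands far above both other groups, and Fosl2 Tg lies below control with a narrow gap. Tnfrsf9 rose by 0.95 ± 0.09 in labelled Fosl2 KO (limma adjusted p = 0.00111), under all 19 alternatives. Its change in Fosl2 Tg was -0.30 ± 0.09 (adjusted p = 0.0423) and was lost under 13 of 19 alternatives. Among them were all 3 scalings (-0.26, -0.22 and -0.20, adjusted p = 0.0783, 0.168 and 0.160), and the removal of control library 1, 2 or 3 (0.0779, 0.106 and 0.104), of Fosl2 Tg library 2 or 3 (0.0833 and 0.0876) or of labelled Fosl2 KO library 1, 2 or 3 (0.0629, 0.0594 and 0.0708). OX40 and 4-1BB are also high on regulatory T cells. Of the 4 tested marker genes of these cells, Foxp3, Ctla4 and Il2ra fell in Fosl2 Tg. Foxp3 and Lrrc32 rose in labelled Fosl2 KO, where Ctla4 differed by -0.26 and did not pass (limma adjusted p = 0.504). The call of Il2ra (adjusted p = 0.0292) was lost without control library 1, 2 or 3 (0.0607, 0.0843 and 0.0711) or labelled Fosl2 KO library 1, 2 or 3 (at most 0.0537), with quantile normalization (0.0515) and with only the 2 groups compared (0.0930). The summed level of that list was 158 to 164 FPKM in control, 78.0 to 117 in Fosl2 Tg and 177 to 196 in labelled Fosl2 KO, and Foxp3 stood at 2.27 to 3.03, 0.215 to 0.540 and 6.22 to 6.48 FPKM. That sum lies above control in labelled Fosl2 KO, as Tnfrsf9 does, whereas Tnfrsf4 lies below control. The marker list of memory or effector T cells had 3 tested genes. Cd44 changed by -0.51 in Fosl2 Tg (adjusted p = 0.00688) and by 0.59 in labelled Fosl2 KO (adjusted p = 0.00870). Itgb1 also fell in Fosl2 Tg, from a mean of 37.1 to 28.7 FPKM. Ly6c2 rose there, from a mean of 3.20 FPKM to 43.6, 7.23 and 7.84 in the single libraries. The calls of Itgb1 and Ly6c2 were lost without control library 2 or 3, and neither gene passed in labelled Fosl2 KO. The part of regulatory or memory T cells in the values of Tnfrsf4 and Tnfrsf9 was not tested.

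Tnfrsf14 (chr4:154922210-154928077) encodes HVEM, which binds LIGHT and the inhibitory receptor BTLA and is high on resting T cells. Its level was 13.6, 14.2 and 8.93 FPKM in control, 33.4, 24.4 and 25.8 in Fosl2 Tg, and 11.9, 11.1 and 11.9 in labelled Fosl2 KO. Every Fosl2 Tg library lies above every other library, and labelled Fosl2 KO lies within the control range. Tnfrsf14 rose by 1.14 ± 0.17 in Fosl2 Tg (limma adjusted p = 0.00385), while its ligand Tnfsf14 fell in the same libraries. Cd27 (chr6:125232622-125237027), the receptor of CD70 and a mark of naive and central memory T cells, stood at 69.4, 63.3 and 59.6 FPKM in control, 131, 81.3 and 84.6 in Fosl2 Tg, and 78.5, 70.6 and 75.9 in labelled Fosl2 KO. Fosl2 Tg library 1 stands well above the others. All labelled Fosl2 KO libraries lie above all controls, but Cd27 did not pass there (0.22 ± 0.16, limma adjusted p = 0.517). Cd27 rose by 0.59 ± 0.16 in Fosl2 Tg (limma adjusted p = 0.0372), and the difference was 0.37 without Fosl2 Tg library 1. That call was lost without control library 2 (0.106), control library 3 (0.114) or labelled Fosl2 KO library 1, 2 or 3 (0.0592, 0.0590 and 0.0642), without the filter on low values (0.0626) and with only the 2 groups compared (0.105). The marker list of naive T cells moved with these rises in Fosl2 Tg. Of its 3 genes (Ccr7, Lef1 and Tcf7), Ccr7 and Tcf7 rose there. In labelled Fosl2 KO, Ccr7 fell, while Cd27 lay above control and Tnfrsf14 within the control range. The summed level of the list was 602 to 649 FPKM in control, 789 to 1011 in Fosl2 Tg and 491 to 506 in labelled Fosl2 KO. The call of Tcf7 (limma adjusted p = 0.0393) was lost without control library 2 or 3 (0.104 and 0.123) or labelled Fosl2 KO library 1, 2 or 3 (0.0635, 0.0640 and 0.0670), without the filter on low values and with only the 2 groups compared. That of Ccr7 in labelled Fosl2 KO (adjusted p = 0.0442) was lost under 12 of 19 alternatives, among them the removal of any library other than Fosl2 Tg library 1 (0.0676 to 0.178). The part of naive-type cells in the values of Tnfrsf14 and Cd27 was not tested.

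Tnfrsf13b (chr11:61140835-61147642) encodes TACI, a receptor for BAFF and APRIL best known on B cells. It stood at 5.25, 4.11 and 3.78 FPKM in control, 3.58, 2.88 and 2.71 in Fosl2 Tg, and 2.81, 2.82 and 2.69 in labelled Fosl2 KO. Control library 1 is the highest, and both other groups lie below all controls. Tnfrsf13b was the 1 described member called lower in both groups, by -0.40 ± 0.11 in Fosl2 Tg (limma adjusted p = 0.0362) and -0.50 ± 0.11 in labelled Fosl2 KO (adjusted p = 0.0445), and these comparisons share the control libraries. Its calls were lost under 11 and 10 of the 18 alternatives in which it was tested. In Fosl2 Tg these included the removal of control library 1 or 2 (0.0614 and 0.0830), Fosl2 Tg library 2 or 3 (0.0729 and 0.0817) or labelled Fosl2 KO library 1, 2 or 3 (0.0592, 0.0598 and 0.0624). In labelled Fosl2 KO they included the removal of control library 1 or 2 (0.0956 and 0.113), Fosl2 Tg library 2 or 3 (0.0681 and 0.0555) or labelled Fosl2 KO library 1, 2 or 3 (0.137, 0.137 and 0.152). B cell markers were near 0: the summed level of 6 of them was 0.983 to 1.69 FPKM in control, 0.578 to 0.974 in Fosl2 Tg and 1.19 to 1.52 in labelled Fosl2 KO, with Ms4a1 at 0 in all Fosl2 Tg libraries.

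The remaining receptors of this class did not pass against control. Of the alternatives run, only array weights gave 1 of them a call, Tnfrsf1b in labelled Fosl2 KO (0.17, limma adjusted p = 0.0136). Those weights called 5313 genes in that comparison. Tnfrsf1b (chr4:145212368-145246870), the TNF receptor that responds mainly to membrane TNF and costimulates T cells, stood at 20.0 to 24.1 FPKM in control, 24.4 to 27.7 in Fosl2 Tg and 23.9 to 28.1 in labelled Fosl2 KO (limma adjusted p = 0.0974 and 0.200). Tnfrsf12a (chr17:23675445-23677449), the TWEAK receptor, stood at 4.17 to 4.93 FPKM in control, 4.16 to 6.5 in Fosl2 Tg and 4.05 to 6.13 in labelled Fosl2 KO (adjusted p = 0.676 and 0.825). Within both genes the groups overlap or nearly touch.

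All 3 described receptors classed here as decoys rose in Fosl2 Tg (8.53% of all tested genes did). None of them passed in labelled Fosl2 KO (4.46% of all tested genes did). Tnfrsf22 and Tnfrsf23 are known in the mouse as decoy receptors for TRAIL. Tnfrsf26, classed with them here, is their neighbour and relative on chromosome 7, the 3 genes spanning 78188 bases. These values do not show whether Tnfrsf26 acts as a decoy. Tnfrsf26 (chr7:143607685-143627845) stood at 11.7, 8.10 and 7.36 FPKM in control, 43.1, 18.9 and 20.7 in Fosl2 Tg, and 5.70, 4.90 and 5.11 in labelled Fosl2 KO. Its groups are apart in the order labelled Fosl2 KO, control, Fosl2 Tg, and Fosl2 Tg library 1 holds more than either of the other two Fosl2 Tg libraries. It rose by 1.43 ± 0.29 in Fosl2 Tg (limma adjusted p = 0.0123), the largest difference from control among the 26 members in either group. That call was lost without control library 2 (0.0535), without control library 3 (0.0504) and with only the 2 groups compared (0.0547). In labelled Fosl2 KO it did not pass (adjusted p = 0.260), but passed without Fosl2 Tg library 1 (0.0291) and with array weights (0.000584).

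Tnfrsf22 (chr7:143636725-143649638) stood at 5.74, 5.63 and 5.0 FPKM in control, 8.03, 7.20 and 8.45 in Fosl2 Tg, and 6.07, 5.82 and 5.61 in labelled Fosl2 KO. Tnfrsf23 (chr7:143665807-143685872) stood at 1.72, 1.34 and 1.26 FPKM in control, 3.79, 2.94 and 3.44 in Fosl2 Tg, and 1.40, 1.28 and 1.18 in labelled Fosl2 KO. In both genes Fosl2 Tg lies above every other library and labelled Fosl2 KO overlaps control. Tnfrsf22 rose by 0.46 ± 0.07 (limma adjusted p = 0.00394) and Tnfrsf23 by 0.85 ± 0.10 (adjusted p = 0.00148) in Fosl2 Tg. Both calls held under every alternative in which the gene was tested, 19 for Tnfrsf22 and 18 for Tnfrsf23, whose mean lies under the stricter filter of 5 FPKM. The pair is uncertain as separate genes: 17.6% of the 50-base windows of Tnfrsf22 transcripts occur in Tnfrsf23, and 21.8% the other way round, so the authors' counting could split reads between them. Tnfrsf26 shares none of its windows with either, and exons of the antisense transcript E230032D23Rik overlap 3.33% of its exonic bases and 4.14% of those of Tnfrsf23.

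Added up per library, ligand RNA was highest in Fosl2 Tg and lowest in labelled Fosl2 KO, and receptor RNA the reverse. Ltb and Tnfrsf4 weighed heavily on these sums. Summed over the 17 ligands, the level was 539, 542 and 517 FPKM in control, 613, 590 and 577 in Fosl2 Tg, and 401, 402 and 396 in labelled Fosl2 KO. Summed over the 23 receptors it was 504, 529 and 520 FPKM in control, 486, 445 and 425 in Fosl2 Tg, and 569, 527 and 556 in labelled Fosl2 KO. The ligand sums of the 3 groups with Ltb do not overlap, whereas the receptor sum of labelled Fosl2 KO library 2 lies inside the control range. Without Ltb the ligand sum was 357, 384 and 355 FPKM in control and 316, 372 and 358 in Fosl2 Tg, which overlap, and 316, 318 and 311 in labelled Fosl2 KO. Ltb alone made up 31.4% of ligand FPKM in control, 41.1% in Fosl2 Tg and 21.2% in labelled Fosl2 KO. Among receptors, Tnfrsf4 made up 52.2%, 33.0% and 42.1%, and Tnfrsf9 13.7%, 12.7% and 25.1%, in the same order. Mean Tnfrsf4 went from 271 FPKM in control to 147 in Fosl2 Tg, a larger fall than that of the receptor sum. The lower receptor sum in Fosl2 Tg thus rests on Tnfrsf4, and the other receptors together were not lower there.

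**Figure D4:**
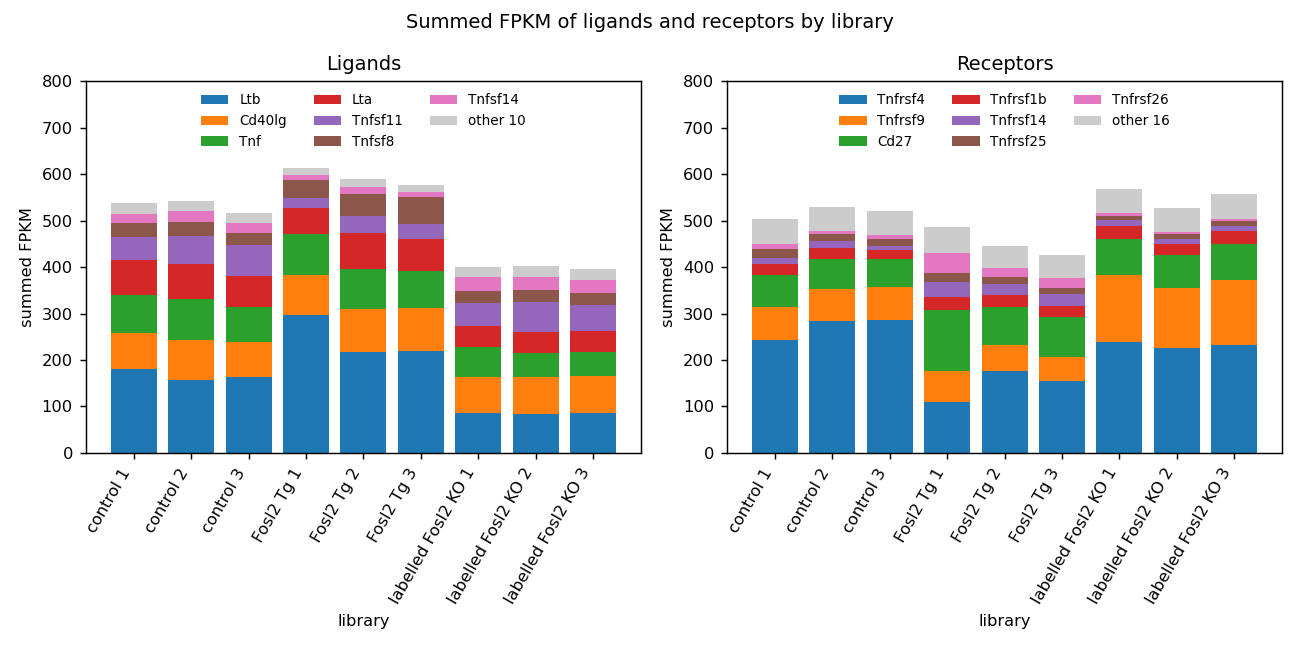
Summed FPKM of the 17 ligands (left) and 23 receptors (right) in every library, stacked by the 7 genes with the highest mean and the rest in grey. Ligand bars run from 396 to 613 FPKM, with the Ltb part widest in Fosl2 Tg, and receptor bars from 425 to 569, with the Tnfrsf4 part narrowest in Fosl2 Tg and the Tnfrsf9 part widest in labelled Fosl2 KO.

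The other 14 members lay under a mean of 1 FPKM, and 10 of them under 0.1. The 4 between 0.1 and 1 are Tnfrsf13c, Cd70, Tnfrsf19 and Tnfrsf8, and the highest value of any of the 14 in a library was 1.86. Tnfrsf13c, which encodes the BAFF receptor of B cells, stood at 0.648, 0.828 and 1.07 FPKM in control, 0.193, 0.0765 and 0.123 in Fosl2 Tg, and 1.86, 1.86 and 1.85 in labelled Fosl2 KO. Its groups are far apart, and with no filter on low values it changed by -0.70 ± 0.08 in Fosl2 Tg (limma adjusted p = 0.00272) and rose by 0.63 ± 0.08 in labelled Fosl2 KO (adjusted p = 0.00613). Cd70, the ligand of CD27, stood at 0.0612, 0.156 and 0.249 FPKM in control, at 0, 0.0570 and 0 in Fosl2 Tg, and at 0.748, 0.831 and 0.888 in labelled Fosl2 KO. It rose by 0.66 ± 0.06 in labelled Fosl2 KO (adjusted p = 0.00150) and did not pass in Fosl2 Tg (adjusted p = 0.0863). Tnfrsf19, known as TROY, stood at 0.259 to 0.301 FPKM in control, 0.0637 to 0.107 in Fosl2 Tg and 0.521 to 0.756 in labelled Fosl2 KO. It changed by -0.24 ± 0.05 in Fosl2 Tg (adjusted p = 0.0258) and rose by 0.32 ± 0.05 in labelled Fosl2 KO (adjusted p = 0.0168). Tnfrsf8, which encodes CD30, did not pass (0.146 to 0.290, 0.284 to 0.668 and 0.270 to 0.442 FPKM).

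**Figure D5:**
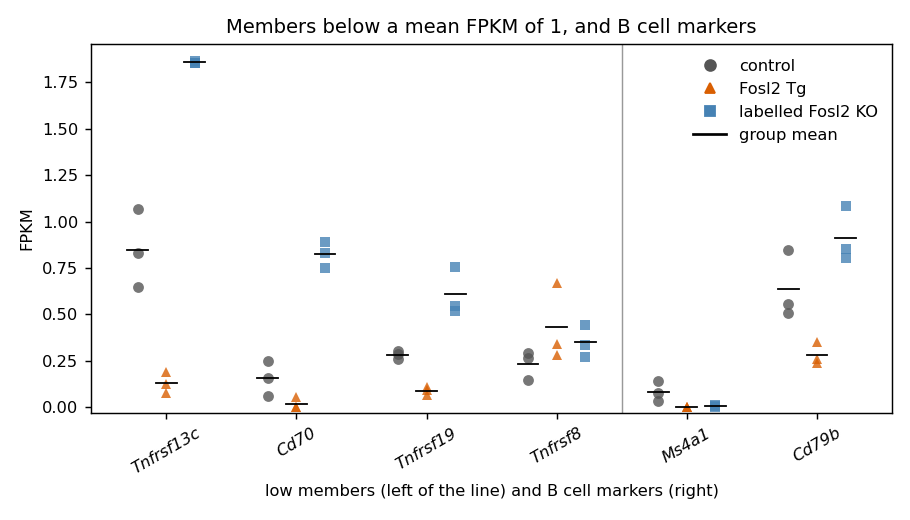
FPKM in every library for the 4 members with a mean between 0.1 and 1 FPKM and, right of the line, for 2 B cell markers, with black bars for group means. Tnfrsf13c, Cd70 and Tnfrsf19 are lowest in Fosl2 Tg and highest in labelled Fosl2 KO; Ms4a1 is at or near 0 in both of these groups, and Cd79b is lowest in Fosl2 Tg.

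Cd79b, a B cell receptor component, stood at 0.509 to 0.848 FPKM in control, 0.241 to 0.350 in Fosl2 Tg and 0.805 to 1.08 in labelled Fosl2 KO, the order of Tnfrsf13c. Its partner Cd79a did not follow that order, with 0.271 to 0.609, 0.299 to 0.538 and 0.257 to 0.384 FPKM, and Pax5 and Blk were at 0 in every labelled Fosl2 KO library. Ms4a1, which encodes the B cell surface protein CD20, was at 0 in Fosl2 Tg and at most 0.0117 FPKM in labelled Fosl2 KO, where Tnfrsf13c was highest. The other low members were near 0 in all groups. Ltbr, the lymphotoxin beta receptor, reached at most 0.161 FPKM in a library, Cd40, the receptor of Cd40lg, at most 0.0910, and Tnfrsf11a, the RANKL receptor, at most 0.0785. The RNA of Ltb, Cd40lg and Tnfsf11 was thus plentiful in libraries that held almost none of their receptors. The same held for ligands of described receptors, with at most 0.109 FPKM for Tnfsf15 (TL1A), 0.131 for Tnfsf13b (BAFF), 0.0392 for Tnfsf13 (APRIL) and 0.0433 for Tnfsf12 (TWEAK). Tnfrsf17, Tnfsf18 and Tnfrsf11b had a value above 0 in 1 library each.

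Set against each other, Fosl2 Tg and labelled Fosl2 KO differed at 20 of the 26 members, where 38.1% of all tested genes did. Of these, 11 were higher in Fosl2 Tg (17.4% of all genes) and 9 lower (20.7%), and all 11 ligands were among the 20. The libraries of these groups did not overlap for 21 members, 12 higher and 9 lower in Fosl2 Tg (60.4% of all genes, 26.9% higher and 33.4% lower). The widest differences were Tnfrsf26 at 2.10 ± 0.29 (limma adjusted p = 0.00132), Ltb at 1.50 ± 0.12 (6.51e-05), Tnfrsf9 at -1.25 ± 0.09 (4.23e-05) and Tnfsf14 at -1.20 ± 0.11 (0.000144). Ltb, Tnf, Lta, Fasl, Tnfsf8 and Cd40lg were the ligands with more RNA in Fosl2 Tg, and Tnfsf4, Tnfsf9, Tnfsf10, Tnfsf11 and Tnfsf14 those with more in labelled Fosl2 KO. Of the 20 calls, 18 held under every alternative in which the gene was tested. That of Cd40lg (0.18 ± 0.06, adjusted p = 0.0408) was lost without control library 1 (0.0510), Fosl2 Tg library 2 or 3 (0.0882 and 0.0973) or labelled Fosl2 KO library 1, 2 or 3 (0.0996, 0.113 and 0.0920). That of Tnfrsf10b (-0.46 ± 0.13, adjusted p = 0.0254) was lost without labelled Fosl2 KO library 1, 2 or 3 (0.0612, 0.0654 and 0.0831) and with only the 2 groups compared (0.0581). The count over all genes, 3943, was 2578, 2170 and 2343 without labelled Fosl2 KO library 1, 2 and 3, with 18 members called each time.

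Downstream of the receptors, 4 of 28 receptor-proximal adaptors and enzymes, all tested, rose in Fosl2 Tg and 2 fell, where 8.53% of all tested genes rose and 15.1% fell, so that the called share lies near that of all genes (23.6%). The median difference was 0.08. Mlkl, the executor of necroptosis, rose by 0.80 ± 0.13 from a control level of 0.696 ± 0.186 FPKM (SD, n = 3; limma adjusted p = 0.00587), and Tbk1, a kinase of innate and NF-kB signalling, by 0.32 ± 0.06 (adjusted p = 0.00998). Map3k14, the kinase of the non-canonical NF-kB pathway, rose by 0.42 ± 0.10 (adjusted p = 0.0230). Tank, a TRAF-binding protein, changed by -0.36 ± 0.06 (adjusted p = 0.00478) and Traf4 by -0.23 ± 0.05 (adjusted p = 0.0114). In labelled Fosl2 KO 1 of the 28 passed (4.46% of all genes did), Traf4 at -0.21 ± 0.05 (adjusted p = 0.0431), and the median was -0.07. Without control library 2, Map3k14 and Traf4 did not pass in Fosl2 Tg (0.0507 and 0.0531), nor did Map3k14 without control library 3 (0.0632). The remaining riser, Tab2, was lost without control library 2 or 3 (0.0937 and 0.0864) or labelled Fosl2 KO library 1, 2 or 3 (0.0538, 0.0556 and 0.0578). Traf4 in labelled Fosl2 KO was lost without control library 1, 2 or 3 (0.0633, 0.158 and 0.107), Fosl2 Tg library 2 or 3 (0.0622 and 0.0668) or labelled Fosl2 KO library 1, 2 or 3 (0.162, 0.118 and 0.113). With small RNA genes left out, Traf4 was lost in Fosl2 Tg (0.0829) and in labelled Fosl2 KO (0.126). With only the 2 groups compared, Map3k14, Tab2 and Tbk1 were lost in Fosl2 Tg (0.0827, 0.103 and 0.0513). Between the groups, 9 were higher and 1 lower in Fosl2 Tg (17.4% and 20.7% of all genes). Of the 9, Traf5 and Birc3 were lost without labelled Fosl2 KO library 1 (limma adjusted p = 0.0863 and 0.0832) or 2 (0.0770 and 0.0588). Both were also lost without control library 2 and with only the 2 groups compared (0.0671 and 0.0644).

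Among 10 tested negative regulators, 4 rose and 1 fell in Fosl2 Tg (8.53% and 15.1% of all genes; median 0.10), and none passed in labelled Fosl2 KO (4.46% of all genes; median -0.02). Tnfaip3, which encodes the ubiquitin-editing enzyme A20, was the gene that fell, by -0.43 ± 0.06 (limma adjusted p = 0.00427), from 25.2 ± 1.87 to 18.5 ± 1.17 FPKM (SD, n = 3). Cyld, a deubiquitinase, rose by 0.38 ± 0.06 (adjusted p = 0.00481) and Tax1bp1, an adaptor of A20, by 0.29 ± 0.07 (adjusted p = 0.0188). The call of Tax1bp1 was lost without control library 2 (0.0685) or 3 (0.0627). The other two risers, N4bp1 and Itch (adjusted p = 0.0300 and 0.0444), lost theirs there too (0.0825 and 0.106 without control library 2, 0.0897 and 0.114 without 3), so that Cyld was then the 1 riser left of 4. Both were also lost without Fosl2 Tg library 1 or 3, without labelled Fosl2 KO library 1, 2 or 3, and without the filter on low values (0.0521 and 0.0675). With only the 2 groups compared, Tax1bp1, N4bp1 and Itch were lost (0.0737, 0.0952 and 0.124). The calls of Tnfaip3 and Cyld held under all alternatives. Between the groups, 5 were higher and 1 lower in Fosl2 Tg (17.4% and 20.7% of all genes). Of the 5, Spata2 was lost without Fosl2 Tg library 2 (limma adjusted p = 0.0772) or labelled Fosl2 KO library 1, 2 or 3 (0.0780, 0.116 and 0.0760). It was also lost without control library 2, with quantile normalization (0.0633) and with only the 2 groups compared (0.0559).

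The 6 tested genes of ligand and receptor shedding split in Fosl2 Tg, with 2 higher and 2 lower (8.53% and 15.1% of all genes), and 2 rose in labelled Fosl2 KO (2.14%). Adam10, a membrane protease that cuts many surface proteins, stood at 55.4, 53.8 and 50.3 FPKM in control, 36.1, 39.0 and 38.2 in Fosl2 Tg, and 94.5, 93.8 and 90.9 in labelled Fosl2 KO. All 3 groups are far apart, with differences of -0.48 ± 0.05 in Fosl2 Tg (limma adjusted p = 0.00112) and 0.80 ± 0.05 in labelled Fosl2 KO (adjusted p = 0.000194). Rhbdf1, an inactive rhomboid that carries ADAM17 to the surface, followed the same order at about 1 FPKM (-0.53 ± 0.11, adjusted p = 0.0145, and 0.56 ± 0.11, adjusted p = 0.0288), and its relative Rhbdf2 rose in Fosl2 Tg (0.55 ± 0.09, adjusted p = 0.00679). Adam17, the main protease for TNF, rose by 0.17 ± 0.04 in Fosl2 Tg (adjusted p = 0.0214) and did not pass in labelled Fosl2 KO (adjusted p = 0.957). In Fosl2 Tg, Adam17 was lost without control library 2 or 3 (0.0610 and 0.0530) or Fosl2 Tg library 3 (0.0559), and with only the 2 groups compared (0.0797). Rhbdf1 was lost there without control library 2 or 3 (0.0535 and 0.0520) and with quantile normalization (0.0814). In labelled Fosl2 KO, Rhbdf1 was lost without control library 1 or 2 (0.0931 and 0.0907) or labelled Fosl2 KO library 1 or 2 (0.111 and 0.116). It was also lost there with quantile normalization (0.0987) and with a pseudocount of 0.1 (0.107). The calls of Adam10 and Rhbdf2 held under every alternative in which the gene was tested.

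Of the 5 tested genes of a list whose names refer to TNF, most of them to induction by it, 3 fell in Fosl2 Tg (15.1% of all genes did), namely Litaf (-0.61 ± 0.08, adjusted p = 0.00272), Tnfaip8 (-0.92 ± 0.16, adjusted p = 0.00728) and Tnfaip1 (-0.26 ± 0.05, adjusted p = 0.0148), and Litaf alone rose in labelled Fosl2 KO (0.41 ± 0.08, adjusted p = 0.0333; 2.14% of all genes rose). Litaf encodes a regulator of endosomal sorting first described as a transcription factor for TNF, and Tnfaip8 a lipid-binding protein linked to cell survival. The call of Tnfaip1 was lost without control library 2 (0.0621), with small RNA genes left out (0.0727) and with only the 2 groups compared (0.0678). That of Litaf in labelled Fosl2 KO was lost without control library 1, 2 or 3 (0.105, 0.0876 and 0.0862) or labelled Fosl2 KO library 1, 2 or 3 (0.123, 0.0791 and 0.0892). It was also lost with the replicate number as a block (0.0555). Both of the remaining calls in Fosl2 Tg held under all alternatives.

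In the authors' deposited table of comparisons, which gives 1 value per group, 14 of the 26 described members are marked significant for Fosl2 Tg against control, 10 for labelled Fosl2 KO against control and 20 between the groups. The calls made here and there are shared for 14, 8 and 19 members. The authors' deposited table does not mark Tnfrsf13b and Tnfrsf9 in Fosl2 Tg (its q-values are 0.0695 and 0.0711). Of the 40 members, 25 have a row in that table, and Cd40lg, called between the groups here, is not among them. It marks 3 that did not pass here, Tnfrsf26 and Tnfsf14 in labelled Fosl2 KO against control (log2 differences of -0.79 and 0.41) and Cd27 between the groups. Of the low members, the authors' deposited table marks Tnfrsf13c and Tnfrsf19 in all 3 comparisons, Cd70 in labelled Fosl2 KO against control and Tnfrsf8 in Fosl2 Tg against control.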

How the data were processed

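RNA of 9 libraries, 3 per group, was analysed from the authors' processed tables. The deposited values are FPKM per gene and library, and the authors' second table of 4122 entries gives 1 FPKM per group, a log2 ratio, a p-value and a q-value per comparison, per the file headers. The submitters' processing notes name TopHat, Cufflinks, Cuffdiff and the build mm10; versions, settings and the use of strand were not given in any source used here. No column of values was left unmatched to a sample (0), and an emptied line in each table was not analysed here. Coordinates are written 1-based.

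Genes with a mean of at least 1 FPKM over the 9 libraries (10340) were tested with limma 3.58.1 in R 4.3.3, with an intensity trend, on log2(FPKM + 1). The pseudocount of 1 makes differences of low genes smaller. All 3 groups shared 1 fit with no covariate and 6 residual degrees of freedom, and p-values were adjusted by Benjamini-Hochberg over all tested genes at 0.05. The same steps were tested on simulated data. FPKM holds no counts, so no count test was used; depth was estimated from whole-multiple steps of low FPKM values in 628 genes with a single transcript of at least 2000 bases. Small RNA genes held 21.1 to 38.0% of summed FPKM, which bears on FPKM scaling. Motifs were searched in RefSeq promoters (GRCm38.p6) whose start lies within 100 bases of the authors' gene end; overlaps and shared windows used GENCODE vM21. Every member with a mean of at least 1 FPKM is named, and of other pathway genes up to 3 per direction, list and comparison with the smallest adjusted p. Some further called pathway genes are named where their call was lost under an alternative. The members, 4 pathway lists and 11 marker lists were chosen with earlier results of these data known. Some marker genes are not reported here and were left out of the lists' counts and sums. The summed FPKM of the marker lists in control, Fosl2 Tg and labelled Fosl2 KO was 11.9 to 12.8, 10.7 to 12.7 and 6.12 to 7.49 for CD8 T cells, 1.89 to 2.04, 2.51 to 3.47 and 1.09 to 1.62 for myeloid cells, 59.6 to 62.9, 53.7 to 81.6 and 64.6 to 74.3 for memory or effector T cells, and 15.0 to 21.8, 24.3 to 38.1 and 13.0 to 13.6 for stroma. Nearly all of the stroma sum was Pecam1 and Epcam. Of the other genes of that list, Col1a1 reached at most 0.0450 FPKM in a library, Col1a2 at most 0.00660, and Pdgfra was at 0. Gamma delta T cell and red blood cell markers summed to 0.0490 to 0.127 and 0 to 0.236 over all libraries.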

Additional observations from a re-analysis of the deposited data

How the results depend on the processing

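Each result was recomputed under 19 alternatives, 9 of which leave out 1 library. None of the 44 calls of described members reversed. In Fosl2 Tg against control, 33 of 144 values without 1 library and 17 of 156 under other settings no longer passed; in labelled Fosl2 KO against control 21 of 72 and 3 of 78 did not, and between the groups 9 of 180 and 1 of 196. Without 1 library each, the count of called genes ranged from 879 to 2529 (Fosl2 Tg against control), 176 to 1233 (labelled Fosl2 KO against control) and 2170 to 4100 (between the groups). The count of called members ranged from 10 to 18 (4 to 8 higher, 5 to 10 lower), from 4 to 10 (2 to 3 higher, 2 to 8 lower) and from 18 to 20. With only the 2 groups compared, 861 genes and 9 members (4 higher, 5 lower) were called in Fosl2 Tg against control, and 888 genes in labelled Fosl2 KO against control. Array weights, which lend more weight to libraries close to their group, gave 5991 genes in the former and 5313 genes and 20 members (8 higher, 12 lower) in the latter. With a mean FPKM of at least 5, 8004 genes and 20 members were tested. Of these, 289 genes and 1 higher member were called in labelled Fosl2 KO against control. Tnfsf10, with a mean of 1.70 FPKM, was then not tested. The cause of the other shifts was not tested. With the replicate number as a block, 3259, 491 and 4589 genes and 16, 8 and 21 members were called. Deviations of same-numbered libraries from their group means had correlations from -0.126 to 0.098. The labels do not say what the numbers mark, so whether they pair the samples cannot be told. Libraries of 33.9 to 61 M fragments leave members near 0 without a usable difference.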
